A study of Mus musculus with 12 samples.

Results

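The transcript levels of 10 transcription factors of the basophil and mast cell lineages, Gata1, Gata2, Mitf, Runx1, Runx3, Ikzf1, Spi1, Irf8, Bhlhe40 and Nfil3, were followed in sorted mouse basophils. The genes were chosen by symbol and are 10 of the 31301 gene symbols in the count table. Bone marrow cells of wild-type C57BL/6J mice were cultured for 7 days with interleukin-3 (IL-3, 0.3 ng/mL) or with thymic stromal lymphopoietin (TSLP, 1 µg/mL) to grow bone marrow-derived basophils (BMBAs). The labels state the TSLP amount in different units, and the figure in the treatment protocol is the one printed. From each kind of culture, FcεRIαhi CD49blo immature cells, which the study calls pre-basophils, and FcεRIαlo CD49bhi mature cells were sorted, and polyadenylated RNA was sequenced. Each combination of cytokine and stage held 3 libraries, which gives 4 groups. All cells were wild type and no group was left without cytokine. The sources used here do not give the age and sex of the mice. The replicates are described as separate cultures, with no statement on whether these came from separate mice or whether both fractions of a culture carry the same number, so the p-values may measure technical spread only.

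Basophils arise in the bone marrow from myeloid progenitors under a small set of transcription factors. GATA-2 drives the basophil and mast cell programme together with GATA-1, MITF favours the mast cell fate, and RUNX1 is needed for basophil development. PU.1, encoded by Spi1, and IRF8 are general myeloid regulators, while Ikaros, encoded by Ikzf1, restricts lineage choice. NFIL3 owes its name to its regulation by IL-3, and both IL-3 and TSLP receptors signal through STAT5.

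Markers of the labelled cell type were looked at first. The paper defines BMBAs as CD200R3-positive, c-Kit-negative cells. FcεRIα and CD49b, on which the fractions were split, are encoded by Fcer1a and Itga2. The levels of Cd200r3, Fcer1a, Itga2 and Kit may thus follow from the sort and are no independent check. The summed level of 7 basophil markers (Mcpt8, Prss34, Cd200r3, Fcer1a, Ms4a2, Itga2 and Il3ra) is given in CPM, that is, counts scaled to a common library size after the TMM normalisation of edgeR. It was 37385 to 40635 CPM in immature and 8425 to 10561 CPM in mature cells of IL-3 cultures, and 25916 to 28889 CPM in immature and 6315 to 9538 CPM in mature cells of TSLP cultures. The 6 mast cell markers (Kit, Cma1, Mcpt4, Tpsb2, Tpsab1 and Mrgprb2) summed to no more than 8.90 CPM in any library, and Tpsab1 and Mrgprb2 had no count in any of the 4 groups. The library TSLP mature 1 stood apart in its markers of other cells: 828 CPM of 8 neutrophil markers against 59.9 and 50.8 in TSLP mature 2 and 3, 1549 CPM of 8 monocyte and macrophage markers against 664 and 622, and 184.5 CPM of 8 B-lineage markers against at most 20.7. Where a call of the factors between 2 groups changed without it, both values are given, and likewise for the statements on other genes that it moved most. The 5 megakaryocyte markers (Pf4, Itga2b, Gp9, Ppbp and Gp1bb) summed to 598 to 732 CPM in IL-3 immature and 607 to 725 CPM in IL-3 mature libraries. They stood at 708 to 838 CPM in TSLP immature and 907 to 1094 CPM in TSLP mature libraries. The 7 dendritic cell markers summed to 63.7 to 150 CPM over all libraries. The part of both sets in the differences between groups was not tested. Libraries held 1720065 to 3685285 counts, and 3 ribosomal RNA rows took 14.7% to 25.0% of the counts in IL-3 and 17.3% to 40.1% in TSLP libraries. The part of this share in the differences between cytokines was not tested. With these rows left out, the calls of Bhlhe40 and Runx3 between mature cells, described further on, were also made. Between immature cells those of Bhlhe40 and Nfil3 were made too, while that of Spi1 was lost (adjusted p = 0.0588 in edgeR's test). In bulk RNA, fewer cells that express a gene and less RNA per cell cannot be told apart.

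The 10 genes lie on 8 chromosomes of the GRCm38.p6 assembly, by the coordinates of RefSeq. Gata2 (chr6:88193891-88207032) and Bhlhe40 (chr6:108660629-108666925) share chromosome 6 with Mitf (chr6:97807002-98021360), all on the plus strand. Nfil3 (chr13:52967209-52982878), Runx1 (chr16:92601466-92826074) and Gata1 (chrX:7959260-7976663) lie on the minus strand. Runx3 (chr4:135120645-135177990), Ikzf1 (chr11:11684962-11772930), Spi1 (chr2:91082374-91115759) and Irf8 (chr8:120736358-120756694) lie on the plus strand. Exons of Runx1 overlap the opposite-strand gene Gm26626 and those of Bhlhe40 overlap 0610040F04Rik. The sources used here do not say whether strand was used in counting, so reads of these overlaps cannot be told apart. Of the 50-base stretches in the transcripts, 1.11% of those of Runx3 also occurred in transcripts of other genes, and none of those of the other members did.

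Promoter sequences from RefSeq (GRCm38.p6) were present for 8 of the 10 members, 15 promoters in all, and were not for Spi1 and Bhlhe40. Those of 3 genes whose levels differed between groups are shown, each as the bases before an annotated transcript start, read 5′ to 3′ on the gene's strand. The stretch of Nfil3 (chr13:52981074-52981289, minus strand, 216 bases) lies before a start inside the RefSeq span of the gene, not at its outer end, and stops short of 34 bases that GENCODE M21 places in its first exon, and 84.7% of it is G or C. The stretch of Gata2 (chr6:88193641-88193890, plus strand, 250 bases) ends at the first of its annotated starts, and that of Runx3 (chr4:135120395-135120644, plus strand, 250 bases) ends at its distal start and overlaps an exon of the opposite-strand gene Gm16225. Capitals mark GC boxes (GGGCGG on either strand) in Nfil3 and Gata2 and RUNX motifs (TGTGGT or TGCGGT on either strand) in Runx3.
Nfil3: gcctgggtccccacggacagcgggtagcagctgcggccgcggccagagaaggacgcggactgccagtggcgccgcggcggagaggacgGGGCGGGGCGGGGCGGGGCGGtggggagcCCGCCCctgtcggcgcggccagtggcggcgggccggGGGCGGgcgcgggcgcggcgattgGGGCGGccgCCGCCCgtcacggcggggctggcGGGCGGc
Gata2: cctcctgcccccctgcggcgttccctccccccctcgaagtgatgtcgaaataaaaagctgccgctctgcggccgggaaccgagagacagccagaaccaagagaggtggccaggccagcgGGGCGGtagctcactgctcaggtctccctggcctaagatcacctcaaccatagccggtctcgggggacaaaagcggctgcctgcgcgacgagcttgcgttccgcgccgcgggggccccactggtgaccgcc
Runx3: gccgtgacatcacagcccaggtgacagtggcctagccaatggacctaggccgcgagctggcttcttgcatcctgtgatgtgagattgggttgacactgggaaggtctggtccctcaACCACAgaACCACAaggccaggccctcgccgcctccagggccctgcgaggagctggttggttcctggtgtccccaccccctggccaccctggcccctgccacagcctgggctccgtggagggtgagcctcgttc
The Nfil3 stretch held 9 GC boxes, of which 4 stand in a row and share a base with their neighbours, and the Gata2 stretch held 1. A GC box was present in 8 of the 15 members' promoters of 300 bases and in 35.7% of all 32851 promoters, and it was searched for after the base composition had been seen. The RUNX motif was present in 4 of 15, and in 22.4% of all promoters, with 2 copies in the distal promoter of Runx3. The GATA motif (AGATAA, or the same with T in first or G in last place, on either strand) was present in 2 of 15, both of Mitf, and in 29.8% of all. The PU.1 core GAGGAA was present in 2 of 15 (28.3% of all), and the E-box CACGTG in 1 of 15 (7.15% of all). The E-box CATGTG, the IRF element and the D-box cores TTACGTAA and TTATGTAA, the last being the kind of site bound by NFIL3, were present in 0 of 15 (14.2%, 3.44% and 1.06% of all). These are matches of letters in a window and were not tested as sites.

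The largest changes among the 9 factors that could be tested were those of Bhlhe40 and Nfil3, and the 4 factors that changed with maturation were all higher in mature cells. A gene was called where the Benjamini-Hochberg adjusted p of edgeR's quasi-likelihood test was under 0.05 over all 10861 tested genes. Of the 10 members 9 were tested, as Mitf had 58 counts over all 12 libraries and did not pass the filter on low counts. In IL-3 cultures, Gata2, Spi1, Bhlhe40 and Nfil3 were lower in immature than in mature cells, which is 4 of 9 members beside 46.2% of all tested genes called in either direction. In TSLP cultures, Spi1, Bhlhe40 and Nfil3 were lower in immature cells, 3 of 9 beside 25.1%. Between mature cells, Bhlhe40 was higher and Runx3 lower with TSLP, 2 of 9 beside 24.3%. Between immature cells, Spi1, Bhlhe40 and Nfil3 were higher with TSLP, 3 of 9 beside 13.3%. The maturation effect itself differed between cytokines for Bhlhe40 and Nfil3, 2 of 9 beside 4.19%. In the test for any difference among the 4 groups, 6 of 9 were called (Gata1, Gata2, Runx3, Spi1, Bhlhe40 and Nfil3) beside 60.8%. The median log2 fold change of the 9 tested members, immature minus mature, was -0.73 with IL-3 and -0.42 with TSLP, where that of all tested genes was -0.06 and -0.03. For TSLP minus IL-3 it was 0.07 in mature and 0.36 in immature cells, beside 0.09 and 0.04. The comparisons share groups, so they are not independent of each other. Among all genes called between the mature groups 1345 were higher and 1289 lower with TSLP, a split that became 1019 and 1491 with the 3 ribosomal RNA rows left out.

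**Figure D1:**
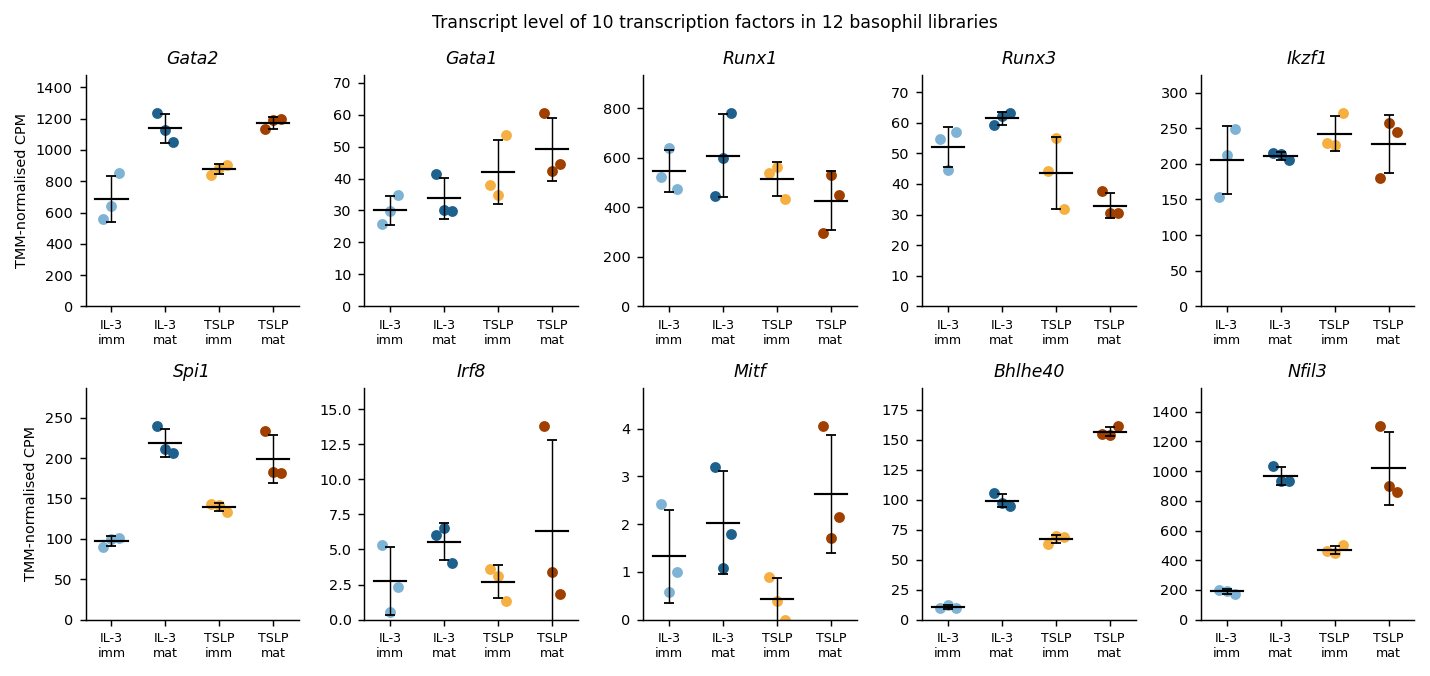
TMM-normalised CPM of the 10 factors (y axis, from 0, a scale of its own for each gene) in the 3 libraries of each group (points), with the group mean (wide line) and SD (bars). The 4 groups of Bhlhe40 do not overlap, from 9.60 to 12.6 CPM in IL-3 immature up to 154 to 161 CPM in TSLP mature libraries, while the Ikzf1 libraries all lie between 154 and 271 CPM.

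Bhlhe40, a basic helix-loop-helix repressor that also acts in the circadian clock and in cytokine control of lymphocytes, changed most of the tested factors. Its level was 9.70, 12.6 and 9.60 CPM in the IL-3 immature libraries and 105, 97.3 and 94.7 CPM in the IL-3 mature libraries. It was 63.4, 69.5 and 68.8 CPM in the TSLP immature libraries and 155, 154 and 161 CPM in the TSLP mature libraries. The groups thus rose without overlap from IL-3 immature over TSLP immature and IL-3 mature to TSLP mature. The IL-3 immature values rest on 20, 44 and 29 counts. In IL-3 cultures the level in immature cells was 9.22-fold lower than in mature cells (log2 fold change -3.20 ± 0.18 SE, adjusted p = 1.64e-09). In TSLP cultures it was 2.33-fold lower (-1.22 ± 0.154, adjusted p = 2.53e-05). TSLP immature cells held 6.25-fold more than IL-3 immature cells (2.64 ± 0.179, adjusted p = 1.27e-07), and TSLP mature cells 1.58-fold more than IL-3 mature cells (0.66 ± 0.152, adjusted p = 0.00627). The maturation effect was smaller in TSLP than in IL-3 cultures by 1.98 ± 0.234 on the log2 scale (interaction, adjusted p = 0.000177). All 5 calls were made in each of 21 alternative analyses.

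Nfil3, a basic leucine zipper repressor that competes with the PAR family of activators for its sites, followed a similar order. Its level was 203, 196 and 172 CPM in the IL-3 immature libraries and 1037, 934 and 934 CPM in the IL-3 mature libraries. It was 460.3, 449 and 500.5 CPM in the TSLP immature libraries and 1299.9, 900.2 and 857 CPM in the TSLP mature libraries. IL-3 immature cells were lowest and TSLP immature cells next, both apart from the mature groups, which overlapped each other. The level in immature cells was 5.09-fold lower than in mature cells with IL-3 (log2 fold change -2.35 ± 0.194 SE, adjusted p = 8.61e-08) and 2.17-fold lower with TSLP (-1.12 ± 0.187, adjusted p = 0.000363). TSLP immature cells held 2.47-fold more than IL-3 immature cells (1.30 ± 0.189, adjusted p = 0.000382). The mature groups differed by 0.07 ± 0.184 (adjusted p = 0.806), and the maturation effect was smaller with TSLP by 1.23 ± 0.263 (interaction, adjusted p = 0.0132). Without the library TSLP mature 1, which had the highest Nfil3 level of all, the TSLP maturation effect was -0.81 (adjusted p = 0.000623) and the interaction 1.49 (adjusted p = 0.000313).

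**Figure D2:**
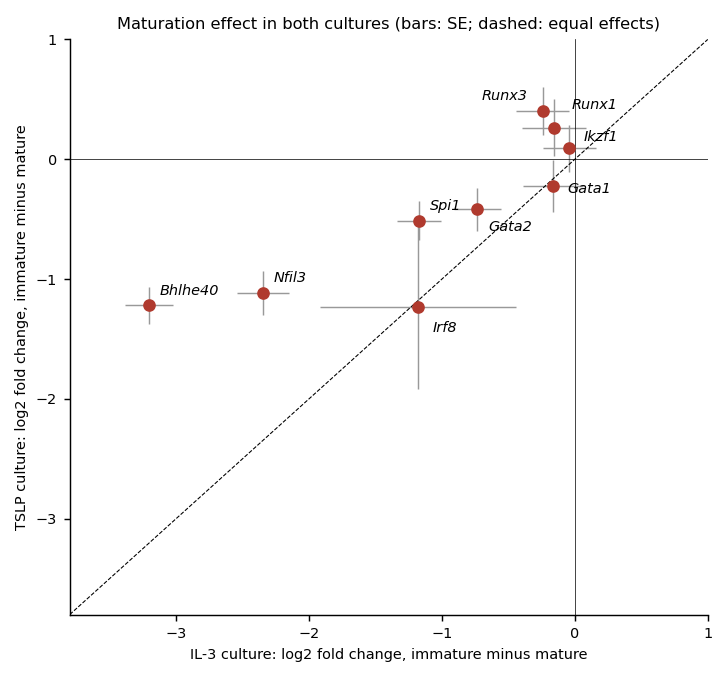
Log2 fold change of immature minus mature cells in IL-3 cultures (x axis) against that in TSLP cultures (y axis) for the 9 tested factors, with SE bars in both directions and a dashed line of equal effects. Bhlhe40 (-3.20 against -1.22) and Nfil3 (-2.35 against -1.12) lie farthest above the line.

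Among 4 relatives of both genes, 3 were tested. The PAR-family activator Tef was lower in immature than in mature cells with IL-3 (log2 fold change -1.37 ± 0.218 SE, adjusted p = 8.59e-05) and higher in TSLP than in IL-3 immature cells (1.38 ± 0.216, adjusted p = 0.000732). Its mean level was 9.83 ± 2.63 CPM (SD, n = 3) in immature and 26.0 ± 2.70 CPM in mature cells with IL-3, and 26.2 ± 2.85 CPM and 37.2 ± 2.47 CPM with TSLP. The maturation difference of Tef with TSLP, -0.50 ± 0.191, was not called (adjusted p = 0.0651). Dbp, another PAR-family activator, was lower in immature cells with TSLP (-1.09 ± 0.343, adjusted p = 0.0276), a call that was lost in 7 of 21 alternatives, among them that without TSLP mature 1 (-0.80, adjusted p = 0.114). With IL-3 the difference of Dbp was similar but not called (-0.97, adjusted p = 0.0583), and neither was its interaction (-0.12, adjusted p = 0.943). Bhlhe41, the closest relative of Bhlhe40, had group means of 0.23 to 1.79 CPM and no call.

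Gata2 was, per length, the highest or next to highest of the 10 factors in every group. Its level was 561, 644 and 849.6 CPM in the IL-3 immature libraries and 1235, 1128 and 1052 CPM in the IL-3 mature libraries. It was 843, 887 and 904 CPM in the TSLP immature libraries and 1131, 1191 and 1199 CPM in the TSLP mature libraries. All 6 mature libraries lay above all 6 immature libraries. The level in immature cells was 1.66-fold lower than in mature cells with IL-3 (log2 fold change -0.73 ± 0.18 SE, adjusted p = 0.00338). With TSLP the difference was -0.42 ± 0.179 and did not pass the test (adjusted p = 0.099), although the libraries did not overlap. The difference between these effects was 0.31 ± 0.253 (interaction, adjusted p = 0.556). Between cytokines Gata2 differed by 0.04 ± 0.179 in mature cells (adjusted p = 0.882) and 0.36 ± 0.179 in immature cells (adjusted p = 0.201).

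Gata1, its relative in erythroid, megakaryocyte, eosinophil and mast cells, was measured at much lower counts. Its level was 25.7, 29.7 and 34.8 CPM in the IL-3 immature libraries and 41.3, 30.2 and 29.8 CPM in the IL-3 mature libraries. It was 37.9, 34.8 and 53.5 CPM in the TSLP immature libraries and 60.4, 42.3 and 44.6 CPM in the TSLP mature libraries. At each stage the 3 TSLP libraries lay above the 3 IL-3 libraries, but only just. The lowest TSLP and highest IL-3 values were 34.77 and 34.76 CPM in immature and 42.3 and 41.3 CPM in mature cells. The differences did not pass the test between mature (log2 fold change 0.54 ± 0.219 SE, adjusted p = 0.0857) or immature cells (0.48 ± 0.223, adjusted p = 0.169), whereas the test for any difference among the groups did (adjusted p = 0.0409). That call was lost in 18 of 21 alternatives, in which the adjusted p reached 0.194. The count ratio of Gata2 to Gata1 within a library, which does not depend on the scaling of libraries, was 22.6 ± 1.56 (SD, n = 3) in immature and 34.2 ± 3.85 in mature cells with IL-3, and 21.6 ± 4.34 and 24.6 ± 5.13 with TSLP. Immature minus mature, the log2 ratio differed by -0.39 (exact permutation test within cytokines, two-sided p = 0.03, adjusted over 6 ratio tests 0.135). The smallest p this design allows is 0.005.

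Of 10 partners of GATA factors 6 were tested. Between immature and mature cells 3 were called with IL-3 and 2 with TSLP, all lower in immature cells. Of all tested genes 46.2% and 25.1% were called in either direction. Tal1, a helix-loop-helix factor that binds in complexes with GATA proteins, stood at 46.8 ± 10.7 CPM (SD, n = 3) in immature and 211 ± 7.15 CPM in mature cells with IL-3, and at 66.9 ± 2.74 and 153 ± 9.02 CPM with TSLP. Its level in immature cells was lower with IL-3 (log2 fold change -2.16 ± 0.178 SE, adjusted p = 7.86e-08) and with TSLP (-1.20 ± 0.172, adjusted p = 9.04e-05). Lyl1, a close relative of Tal1, was lower in immature cells with TSLP (-0.78 ± 0.199, adjusted p = 0.00916) and higher in TSLP than in IL-3 mature cells (0.77 ± 0.2, adjusted p = 0.0119), the former call being lost without TSLP immature 1 or 2 and the latter without IL-3 mature 2 or 3. Without TSLP mature 1 these differences of Lyl1 were -0.49 (adjusted p = 0.0442) and 0.50 (adjusted p = 0.0494). With IL-3 its maturation difference was -0.48 and not called (adjusted p = 0.0701). Gfi1b, a zinc finger repressor of the erythroid and megakaryocyte lineages, had means of 13.7 to 26.4 CPM and no call between 2 groups.

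Runx3, a RUNX factor that acts in T cells, natural killer cells and dendritic cells, was the only tested factor called lower with TSLP. Its level was 54.8, 44.6 and 56.9 CPM in the IL-3 immature libraries and 59.1, 62.3 and 63.1 CPM in the IL-3 mature libraries. It was 44.2, 55.1 and 31.7 CPM in the TSLP immature libraries and 37.8, 30.6 and 30.5 CPM in the TSLP mature libraries. The TSLP mature libraries all lay below the IL-3 mature libraries, and the TSLP immature libraries overlapped both TSLP mature and IL-3 immature libraries. In mature cells the level was 1.86-fold lower with TSLP (log2 fold change -0.90 ± 0.201 SE, adjusted p = 0.00544). In immature cells the difference was -0.26 (adjusted p = 0.436), and the interaction, 0.64, was not called (adjusted p = 0.234). The maturation effect in TSLP cultures, 0.40 (adjusted p = 0.162), was 0.61 without the library TSLP mature 1 (adjusted p = 0.0402) and 0.68 without TSLP immature 3 (adjusted p = 0.0252).

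Runx1, the RUNX factor of early blood formation, spread widely within groups. Its level was 522, 639 and 474 CPM in the IL-3 immature libraries and 446, 601 and 779.8 CPM in the IL-3 mature libraries. It was 539, 564 and 435 CPM in the TSLP immature libraries and 298, 531 and 451 CPM in the TSLP mature libraries. All groups overlapped, and the difference nearest to a call was that of TSLP minus IL-3 mature cells (log2 fold change -0.51 ± 0.24 SE, adjusted p = 0.131). The count ratio of Runx1 to Runx3 ran from 7.54 to 17.3 over the libraries, and the log2 ratio differed by 0.29 between cytokines (exact permutation test within stages, two-sided p = 0.225, adjusted 0.3375). Of 5 RUNX partners 4 were tested. Cbfa2t3, a corepressor, was higher in immature than in mature cells with IL-3 (1.15 ± 0.188, adjusted p = 0.000115), and Runx2 was lower (-1.21 ± 0.244, adjusted p = 0.000732). With TSLP, Runx2 came nearest to a call (-0.66 ± 0.237, adjusted p = 0.0502), which was made in 8 of 21 alternatives. Cbfb, the shared subunit of RUNX proteins, had means of 100.1 to 157 CPM and no call, its nearest difference being that of IL-3 immature minus mature cells (0.64 ± 0.266, adjusted p = 0.0599), which was called in 13 of 21 alternatives.

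**Figure D3:**
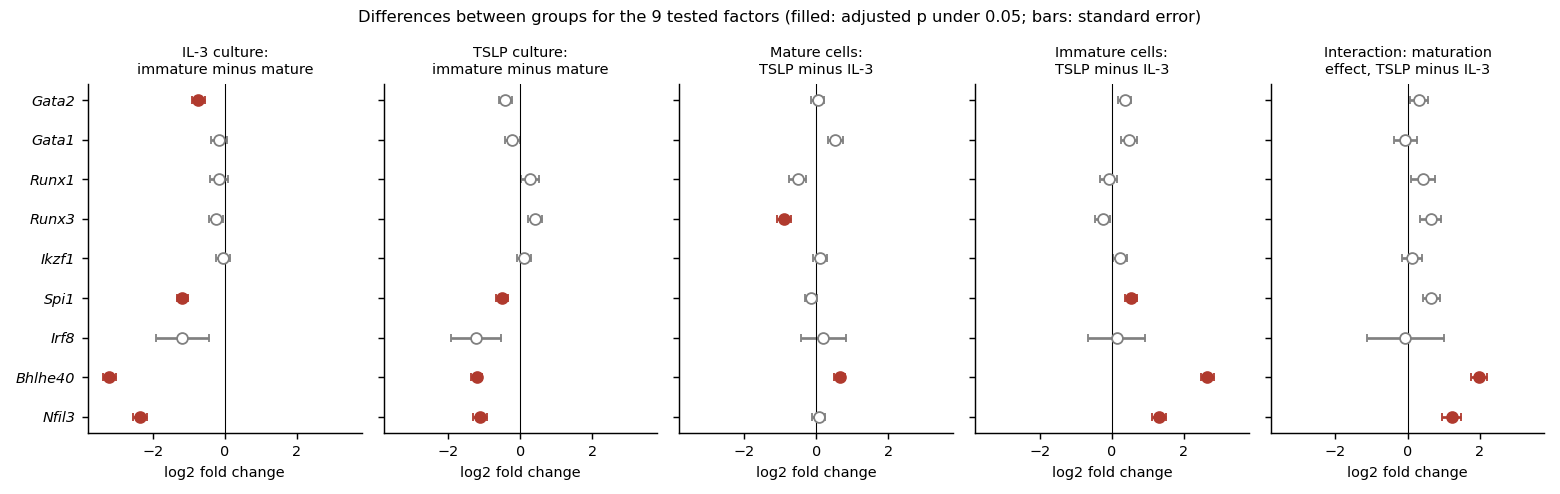
Log2 fold change with SE (x axis) of the 9 tested factors in the 4 comparisons and the interaction, with filled points where the adjusted p was under 0.05. Bhlhe40 is filled in all 5 panels, Nfil3 in 4, Spi1 in 3, Gata2 and Runx3 in 1 each, and Gata1, Runx1, Ikzf1 and Irf8 in none.

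Ikzf1 had the largest adjusted p of the 9 tested factors in the test for any difference among the 4 groups (0.669). Its level was 154, 213 and 249 CPM in the IL-3 immature libraries and 215, 214 and 205 CPM in the IL-3 mature libraries. It was 229, 227 and 271 CPM in the TSLP immature libraries and 181, 257 and 245 CPM in the TSLP mature libraries. The IL-3 mature libraries lay below the TSLP immature libraries and all other pairs of groups overlapped, and in the 4 comparisons the log2 fold changes lay between -0.04 and 0.24 with adjusted p of 0.461 to 0.880. The direction between IL-3 immature and mature cells turned under several alternatives. Its relative Ikzf3, known from lymphocytes, was lower with TSLP in mature cells (log2 fold change -1.42 ± 0.179 SE, adjusted p = 0.000138) and in immature cells (-0.94 ± 0.177, adjusted p = 0.00279). Its mean level was 113 ± 0.888 and 119.9 ± 15.7 CPM (SD, n = 3) in IL-3 immature and mature cells, and 58.4 ± 11.5 and 44.6 ± 3.78 CPM in TSLP immature and mature cells. The other tested members of the Ikaros family, Ikzf2 and Ikzf5, were not called in any comparison of 2 groups, but Ikzf2 was called between IL-3 immature and mature cells without TSLP mature 1 (0.64, adjusted p = 0.0072) and between TSLP immature and mature cells without TSLP mature 2 (1.14, adjusted p = 0.0262).

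Spi1, the gene of PU.1, was lower in immature cells. Its level was 89.8, 99.4 and 102 CPM in the IL-3 immature libraries and 239, 211 and 207 CPM in the IL-3 mature libraries. It was 143, 141 and 134 CPM in the TSLP immature libraries and 233, 182 and 182 CPM in the TSLP mature libraries. The immature groups lay apart from each other and below the mature groups, which overlapped. With IL-3 the level in immature cells was 2.26-fold lower than in mature cells (log2 fold change -1.17 ± 0.164 SE, adjusted p = 2.42e-05). With TSLP it was 1.43-fold lower (-0.51 ± 0.161, adjusted p = 0.0276), a call made in 5 of 21 alternatives. TSLP immature cells held 1.44-fold more than IL-3 immature cells (0.52 ± 0.163, adjusted p = 0.0439), a call made in 3 of 21. The interaction was 0.66 ± 0.228 (adjusted p = 0.124). Without the library TSLP mature 1 the TSLP maturation effect was -0.29 (adjusted p = 0.154) and the interaction 0.84 (adjusted p = 0.0211). The count ratio of Spi1 to Gata2 was 0.145 ± 0.0218 in immature and 0.192 ± 0.00484 in mature cells with IL-3, and 0.159 ± 0.0111 and 0.17 ± 0.0311 with TSLP (SD, n = 3). Its log2 value differed by -0.25 between immature and mature cells (exact permutation test within cytokines, two-sided p = 0.045, adjusted 0.135).

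The 8 monocyte and macrophage markers (Csf1r, Adgre1, Cd68, Lyz2, C1qa, C1qb, Cx3cr1 and Ly6c2) were all present in each group. Like Spi1, their sum was higher in mature than in immature libraries of both cultures. They summed to 155 to 296 CPM in immature and 479 to 813 CPM in mature cells with IL-3, and to 235 to 296 and 622 to 1549 CPM with TSLP. The sums of the 2 immature groups overlapped, where the Spi1 levels did not. In IL-3 immature 1 to 3 the sums fell (296, 223 and 155 CPM) while Spi1 rose (89.8, 99.4 and 102 CPM). In TSLP immature 1 to 3 the sums rose (234.8, 235.2 and 295.5 CPM) while Spi1 fell (143, 141 and 134 CPM). In both mature groups the sums and Spi1 fell together from library 1 to 3. The sums were 813, 609 and 479 CPM with IL-3 and 1549, 664 and 622 CPM with TSLP. Spi1 stood there at 239, 211 and 207 CPM and at 233.4, 182.4 and 181.8 CPM. Ly6c2, 1 of the 8, is also the gene whose pattern was most like that of Nfil3. The 8 neutrophil markers (Ngp, Camp, Ltf, Lcn2, S100a8, S100a9, Mmp8 and Retnlg) went from 165 to 195 CPM in immature to 303 to 427 CPM in mature cells with IL-3, while with TSLP they stood at 110 to 165 CPM and, as a range set by TSLP mature 1, at 50.8 to 828 CPM. The 4 eosinophil markers (Prg2, Epx, Siglecf and Ccr3) went from 27.4 to 36.4 CPM in immature to 62.3 to 86.9 CPM in mature cells with IL-3 and from 16.0 to 33.0 CPM to 60.4 to 79.6 CPM with TSLP, with Epx at 0 in the IL-3 mature and TSLP immature groups. The part of these cell types in the differences of Spi1, of the other factors and of the IRF genes was not tested. Of 9 other ETS factors 7 were tested. Erg, a factor of stem and progenitor cells, was lower with TSLP in mature cells (log2 fold change -1.52 ± 0.266 SE, adjusted p = 0.00125) and in immature cells (-1.50 ± 0.244, adjusted p = 0.000951), from 26.3 ± 7.07 CPM (SD, n = 3) in IL-3 immature to 5.37 ± 0.697 in TSLP mature cells. Elf1 was lower with TSLP too, in mature (-1.38 ± 0.217, adjusted p = 0.000636) and immature cells (-1.05 ± 0.215, adjusted p = 0.00498). Ets2 was lower in IL-3 immature than in IL-3 mature cells (-1.29 ± 0.266, adjusted p = 0.000887), while its difference with TSLP was not called (-0.62 ± 0.239, adjusted p = 0.0689).

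Irf8, a factor of monocyte, dendritic cell and B cell development, was close to the detection limit. It had 11, 2 and 7 counts in the IL-3 immature libraries, 17, 18 and 9 in the IL-3 mature, 12, 8 and 4 in the TSLP immature and 51, 12 and 6 in the TSLP mature libraries, which correspond to 0.57 to 13.8 CPM. The highest value, 51 counts, was that of TSLP mature 1, the library with the most neutrophil, monocyte and B-lineage marker counts of its group. The TSLP immature libraries lay below the IL-3 mature libraries and all other pairs of groups overlapped. No difference was called, and that between TSLP immature and mature cells went from -1.23 ± 0.682 (adjusted p = 0.205) to 0.13 (adjusted p = 0.9) without that library. Of 8 other IRF genes 6 were tested. Between immature and mature cells 5 were called with IL-3 and 3 with TSLP, all lower in immature cells. Of all tested genes 46.2% and 25.1% were called in either direction. Irf9, the DNA-binding subunit of the interferon-activated ISGF complex, was at 41.7 ± 5.21 CPM (SD, n = 3) in mature and 17.6 ± 1.60 CPM in immature cells with IL-3 (log2 fold change -1.25 ± 0.183, adjusted p = 3.90e-05) and at 35.5 ± 0.883 and 18.9 ± 2.29 CPM with TSLP (-0.91 ± 0.179, adjusted p = 0.00142). Irf5, at 1.69 to 9.71 CPM, was lower in immature cells with IL-3 (-1.91 ± 0.417, adjusted p = 0.00139) and with TSLP (-1.83 ± 0.362, adjusted p = 0.00149). Irf3, an inducer of type I interferon, was lower with IL-3 (-1.27 ± 0.206, adjusted p = 0.000107), and its call with TSLP (-0.65 ± 0.201, adjusted p = 0.0249) was lost in 13 of 21 alternatives. Without TSLP mature 1 it was -0.35 (adjusted p = 0.161).

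Mitf, the mast cell member of the MiT family, was at the floor of detection. It had 5, 2 and 3 counts in the IL-3 immature libraries, 9, 3 and 4 in the IL-3 mature, 3, 1 and 0 in the TSLP immature and 15, 6 and 7 in the TSLP mature libraries. A count of 3 corresponds to 0.81 to 1.46 CPM in these libraries and covers counting error only. Without the filter, TSLP immature cells differed from TSLP mature cells by -2.42 ± 0.793 on the log2 scale (edgeR, adjusted p = 0.0216), while DESeq2 gave an adjusted p of 0.0669. Its relatives Tfeb and Tfe3, regulators of lysosomal genes, were better measured, and both were lower in immature cells in both cultures. Tfeb differed by -1.24 ± 0.255 with IL-3 (adjusted p = 0.00086) and by -1.16 ± 0.237 with TSLP (adjusted p = 0.00198), the latter being -0.75 without TSLP mature 1 (adjusted p = 0.0107). Tfe3 differed by -1.11 ± 0.221 with IL-3 (adjusted p = 0.000678) and by -0.80 ± 0.209 with TSLP (adjusted p = 0.0103), the latter being lost in 3 of 21 alternatives.

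Levels of different genes were compared per length, as mean CPM per kb of merged exons. Nfil3 and Gata2 were the highest of the 10 in each group: Gata2 stood at 127 and Nfil3 at 94.0 CPM per kb in IL-3 immature cells, and Nfil3 at 478 and Gata2 at 211 in IL-3 mature cells. In TSLP immature cells Nfil3 stood at 232 and Gata2 at 163, an order that turned when the longest transcript was used as the length, and in TSLP mature cells at 503 and 217 CPM per kb. Spi1, Runx1 and Ikzf1 lay between 35.5 and 81.2 CPM per kb in every group. Bhlhe40 went from 2.26 CPM per kb in IL-3 immature to 33.3 in TSLP mature cells. Gata1 and Runx3 lay between 6.59 and 20.1 CPM per kb, Irf8 between 0.383 and 0.898, and Mitf between 0.0695 and 0.425.

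**Figure D4:**
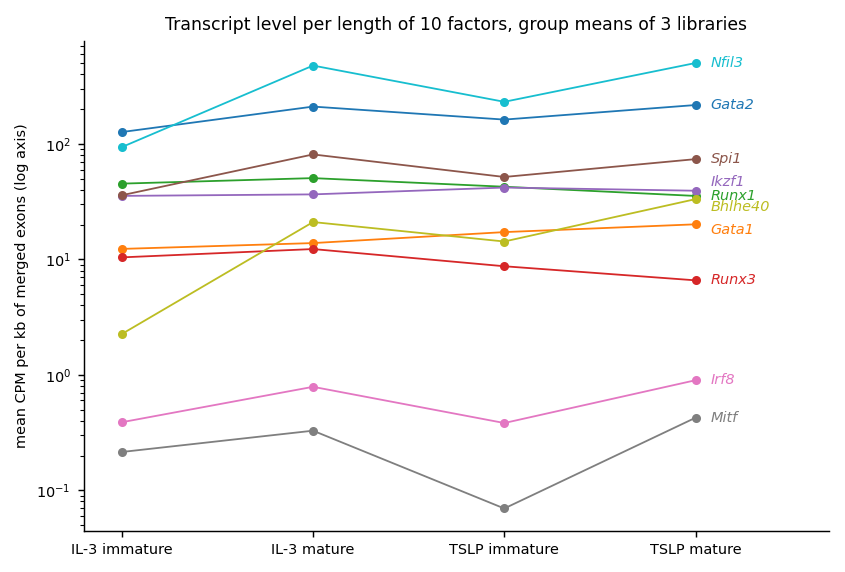
Mean CPM per kb of merged exons (y axis, log scale) of the 10 factors in the 4 groups (points are means of 3 libraries, and lines join the values of a gene). Nfil3 and Gata2 lie on top, Irf8 and Mitf below 1 CPM per kb, and Bhlhe40 covers the range from 2.26 to 33.3 CPM per kb.

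Genes whose log2 CPM was among the most like that of each factor were listed over the 12 libraries among 7549 genes, as a description only, since the libraries share groups. For Bhlhe40 they were Nek6 (Pearson r = 0.996), Rab19 (0.994) and Cd300lf (0.992). For Nfil3 they were Ly6c2 (0.996), Ccl6 (0.994) and Capg (0.992), and for Spi1 Map1lc3b (0.993), Ccl6 (0.985) and Ccl3 (0.985). Gata2 was most like Msn (0.987), Rin3 (0.980) and Zyx (0.979). Values were lower for Gata1 (Scamp4, 0.951, and Aup1, 0.946) and Runx3 (Gm8451, 0.944, Paf1, 0.928, and Gm7866, 0.927). Among the factors themselves, r was 0.975 between Spi1 and Nfil3, 0.956 between Bhlhe40 and Nfil3 and -0.81 between Gata1 and Runx1.

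**Figure D5:**
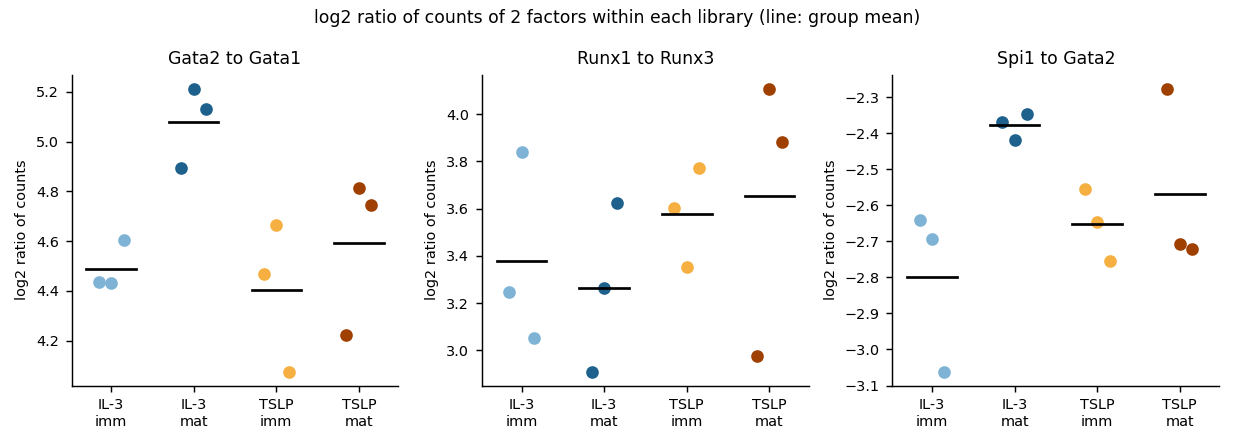
Log2 ratio of the counts of 2 factors within each library (y axis, a scale of its own for each panel and not starting at 0) for Gata2 to Gata1, Runx1 to Runx3 and Spi1 to Gata2 in the 3 libraries of each group (points), with the group mean (line). The IL-3 mature libraries lie highest for Gata2 to Gata1, at ratios of 29.9 to 37.3, and the groups of Runx1 to Runx3 overlap.

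Of 14 other regulators of lineage choice 8 were tested. With IL-3, 2 were higher and 5 lower in immature cells, and with TSLP 2 were higher and 3 lower, the shares of all tested genes called being 46.2% and 25.1%. Myb, a factor of cycling progenitors, was higher in immature cells with IL-3 (log2 fold change 5.04 ± 0.34 SE, adjusted p = 9.46e-09) and with TSLP (2.90 ± 0.282, adjusted p = 1.76e-06), the mean with IL-3 being 68.9 ± 9.71 CPM in immature and 2.09 ± 1.19 CPM in mature cells (SD, n = 3). Id1 and Id2, which hold helix-loop-helix factors off DNA, were lower in immature cells in both cultures, Id1 by -2.62 ± 0.292 with IL-3 (adjusted p = 2.23e-06) and -1.52 ± 0.277 with TSLP (adjusted p = 0.000777), and Id2 by -2.23 ± 0.229 (adjusted p = 8.84e-07) and -1.29 ± 0.222 (adjusted p = 0.000454). Without TSLP mature 1 the TSLP difference of Id2 was -0.84 (adjusted p = 0.000596). Calls for Id2 also appeared without it between the mature groups (-0.95 with TSLP, adjusted p = 0.00046, against -0.50 and 0.0984 with it) and for the interaction (1.35, adjusted p = 0.000928, against 0.94 and 0.107). Id1 was also higher in TSLP than in IL-3 immature cells (1.69 ± 0.284, adjusted p = 0.00126). Without TSLP mature 1 the interaction of Id1 was called (1.40, adjusted p = 0.0242, against 1.10 and 0.133 with that library). Its TSLP difference was then -1.17 (adjusted p = 0.00198).

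Of 16 genes known as targets of the factors 12 were tested, and 4 were higher and 7 lower in immature cells with IL-3 (46.2% of all tested genes being called), against 3 and 5 with TSLP (25.1%). Itgam, which encodes CD11b and is a target of PU.1, rose in mean level with maturation in IL-3 cultures, from 165 ± 19.1 to 1384 ± 84.8 CPM (SD, n = 3; log2 fold change, immature minus mature, -3.07 ± 0.181 SE, adjusted p = 2.44e-09) and in TSLP cultures, from 626 ± 29.3 to 1783 ± 174 CPM (-1.51 ± 0.17, adjusted p = 7.74e-06). It was also higher in TSLP than in IL-3 immature cells (1.93 ± 0.174, adjusted p = 3.48e-06). Mpo, the granule peroxidase of immature myeloid cells, was higher in immature cells with IL-3 (8.82 ± 0.749, adjusted p = 1.14e-07) and with TSLP (5.65 ± 0.605, adjusted p = 4.63e-06), against 12 counts in all IL-3 mature and 71 in all TSLP mature libraries. Of these 71 counts 63 were in TSLP mature 1, and without it the TSLP difference was 8.18 ± 0.351 (adjusted p = 3.28e-10). Cpa3, a carboxypeptidase of basophils and mast cells, was higher in immature cells (1.04 ± 0.19 with IL-3, adjusted p = 0.000324, and 1.15 ± 0.191 with TSLP, adjusted p = 0.000355) and lower with TSLP at both stages (-1.01 ± 0.191 in mature cells, adjusted p = 0.00201, and -0.91 ± 0.19 in immature cells, adjusted p = 0.00581).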

How the data were processed

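RNA of 12 libraries of sorted BMBAs was measured by sequencing on an Ion Proton instrument, with 3 libraries in each of 4 groups taken from the labels. The values are raw counts per gene symbol, deposited by the authors as 1 table. Per the methods of the study, reads were trimmed with Cutadapt and aligned to GRCm38 reference RNA with Bowtie2, while the submitters' processing notes also name GRCm39 and mm10. Handling of reads that fit several genes, of strand and of molecular identifiers is not given in the sources used here. In the table, 1 unnamed row equal to the sum of all others (50% of each column) was left out.

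The quasi-likelihood test of edgeR 4.0.16 (R 4.3.3) was fitted to all 12 libraries with 4 group means, TMM scaling and filterByExpr (minimum count 10, minimum total 15), which kept 10861 of 22634 genes with a count, and p-values were adjusted by Benjamini-Hochberg over these. The tools were tested on simulated data. The common biological coefficient of variation was 20.4%. A gene was called at an adjusted p under 0.05. The authors' tool TCC was not used here. Ratios of counts (0.5 added) were compared by exact stratified permutation. Likeness used log2 CPM (prior count 2) of genes whose mean reached 10 CPM. CPM per kb used merged exons of GENCODE M21. Alternatives were DESeq2 1.42.0 (test and size factors), TMM on uncalled genes, other filters, thinned counts, a replicate block, ribosomal RNA rows left out (the 3 rows together chosen after seeing the data) and each library left out.

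All members were named. From each list of partners, relatives, regulators and targets, the 3 genes with the smallest p of the 4-group test were named, and for each member called there the 3 genes most like it, 1 of which is not reported here. The members and lists were chosen with earlier results of these data known.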

Additional observations from a re-analysis of the deposited data

Results flagged for a closer look

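The maturation effect, immature minus mature, differed between TSLP and IL-3 cultures by edgeR's interaction test for 2 of the 9 tested factors. The same test called 4.19% of all tested genes. It also called 3 of the named partners, regulators and targets. These genes were named for their small p in the 4-group test, which also picks up such differences. Their number can therefore not be set beside that share. For Bhlhe40 the maturation effect was 1.98 higher on the log2 scale in TSLP cultures (adjusted p = 0.000177), with -3.20 in IL-3 and -1.22 in TSLP cultures. For Nfil3 it was 1.23 higher (adjusted p = 0.0132), with -2.35 and -1.12. Both calls were made in each of 21 alternatives, and in both genes the 3 immature libraries lay below the 3 mature libraries in each culture. For Itgam, the CD11b gene, it was 1.56 higher (adjusted p = 0.00174), with -3.07 and -1.51. For Tal1, the partner of GATA factors, it was 0.97 higher (adjusted p = 0.0335), with -2.16 and -1.20, and the call was lost in 10 of 21 alternatives (adjusted p of 0.0514 to 0.0887 in these). For Myb it was lower in TSLP cultures (-2.14, adjusted p = 0.0181), with 5.04 in IL-3 and 2.90 in TSLP cultures, and the call was lost in 4 of 21 alternatives (adjusted p of 0.0505 to 0.142). What sets these differences was not tested.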

How the results depend on the processing

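Over 21 alternatives, no call of a member in a comparison turned its direction. The calls of Bhlhe40 (5), Nfil3 (4), of Gata2 and Spi1 between IL-3 immature and mature cells and of Runx3 between mature cells were made in all 21. The Spi1 calls depended on the setting: adjusted p ran from 0.0228 to 0.163 for TSLP immature against mature and from 0.0181 to 0.183 for TSLP against IL-3 immature cells, and its interaction was called only without TSLP mature 1 (0.84). Uncalled differences turned direction as follows. With 3 ribosomal RNA rows left out, TSLP minus IL-3 mature was -0.041 for Gata2 and -0.010 for Nfil3. IL-3 immature minus mature of Ikzf1 was 0.027 with DESeq2 size factors, 0.031 in the DESeq2 test, 0.048 without a filter, 0.072 with a minimum of 10 CPM and 0.037 without Rn45s. With the replicate block, TSLP minus IL-3 mature of Irf8 was -0.044 and its interaction 0.12.

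Leaving out each library in turn, the ranges of results that turned were, for Gata1, -0.23 to 0.0033 (IL-3 maturation), -0.34 to 0.045 (TSLP maturation) and -0.23 to 0.16 (interaction); for Gata2, -0.070 to 0.11 (mature cells); for Runx1, -0.35 to 0.10 (IL-3 maturation) and -0.21 to 0.0092 (immature cells); for Ikzf1, -0.15 to 0.16 (IL-3 maturation) and -0.047 to 0.16 (mature cells). For Irf8 they were -1.61 to 0.13 (TSLP maturation), -1.15 to 0.59 (mature cells), -0.46 to 0.93 (immature cells) and -0.61 to 1.28 (interaction), and for Nfil3 -0.22 to 0.15 (mature cells). The log2 ratio ran from -0.15 to 0.13 for Runx1 to Runx3 by stage and from -0.094 to 0.018 for Spi1 to Gata2 by cytokine. The number of all genes called ran from 1774 (without TSLP immature 1) to 3456 for TSLP maturation, from 1658 (without IL-3 mature 2) to 2968 between mature cells, from 588 (without TSLP immature 3) to 2243 (without TSLP mature 1) between immature cells and from 240 (without IL-3 mature 2) to 723 (without TSLP mature 1) for the interaction.

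Deviations of libraries with the same replicate number correlated at -0.08 to 0.39, over 0.1 in 7 of 18 pairs and below 0 in 3, where those with other numbers were over 0.1 in 2 of 36 pairs and below 0 in 24. Libraries with the same number were thus more often alike, and a shared origin of these libraries cannot be told from the labels. As no pairing is stated, the main fit left the numbers out and a replicate block was an alternative. With the block, 974 genes were called higher and 919 lower with TSLP between immature cells, against 802 and 641 without it. With a replicate block 4, 3, 2, 3 and 2 members were called in the 4 comparisons and the interaction, as without it. Irf8 and Mitf were limited by depth, with 0 to 51 counts per library.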
